A study of Sus scrofa with 14 samples.

Results

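IL34, CSF1, CSF3 and the receptor CSF1R are 4 of the 30071 gene identifiers in the count matrices of this pig mammary gland series, and they were taken by their symbols, not by their values. They were followed in every gland, tissue section and milk library, by stage, by library and by cell class. The sows were multiparous and in a second breeding cycle. The stages were late gestation at day 90 (G90), lactation at days 0 and 20 (L0 and L20) and natural involution at days 2 and 7 (PI2 and PI7), the stage in which the gland regresses after milk removal ends. Single-nucleus RNA sequencing covered 10 glands of 10 sows, with 1 library from each of 2 sows per stage, and the labels give no treatment or altered gene for any sow. Spatial transcriptomics covered 1 section each at G90 and PI2, and single-cell RNA sequencing covered 1 milk sample each at L0 (colostrum) and L20 (mature milk).

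CSF1 and IL34 are the ligands of CSF1R, a receptor tyrosine kinase of monocytes and macrophages through which both proteins support the survival, growth and differentiation of these cells. They are unrelated in sequence, and in other tissues each has its own producers: CSF1 is made widely, for example by fibroblasts and endothelium, whereas IL34 is known from epithelial cells such as keratinocytes and from neurons. CSF3, or granulocyte colony-stimulating factor, acts on neutrophils and their precursors through another receptor, CSF3R. Mammary macrophages take part in ductal growth during development and in the clearance of dying cells during involution.

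All positions are on the Sscrofa11.1 assembly. IL34 lies on the plus strand at chr6:13588748-13679864. CSF1 lies on the minus strand at chr4:110178466-110198232, CSF1R on the minus strand at chr2:151102138-151130311, and CSF3 on the minus strand at chr12:22333445-22335949. The 250 bases upstream of the annotated start of IL34 and CSF1 are printed below because these ligands of 1 receptor differed in the cell classes that held them. They were read from the RefSeq assembly 5′ to 3′ on the strand of the gene (IL34 chr6:13588498-13588747, CSF1 chr4:110198233-110198482). Capitals mark matches, on either strand, to 4 motifs: GAGGAA (the core read by PU.1), TTGCNNAA (C/EBP), TGANTCA (AP-1) and the NF-kappa-B consensus.
IL34: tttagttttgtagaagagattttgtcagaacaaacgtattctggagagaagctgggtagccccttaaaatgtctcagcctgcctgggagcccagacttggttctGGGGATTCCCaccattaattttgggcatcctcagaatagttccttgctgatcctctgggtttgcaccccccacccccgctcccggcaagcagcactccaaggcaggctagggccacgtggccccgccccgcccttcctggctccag
CSF1: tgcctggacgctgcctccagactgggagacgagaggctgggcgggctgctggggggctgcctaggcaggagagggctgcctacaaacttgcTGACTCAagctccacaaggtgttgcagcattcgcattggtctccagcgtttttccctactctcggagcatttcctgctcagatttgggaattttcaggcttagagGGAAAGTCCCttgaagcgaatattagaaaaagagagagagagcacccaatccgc
The IL34 window held 1 NF-kappa-B match, 146 to 137 bases upstream of the start. The CSF1 window held an AP-1 match 159 to 153 bases upstream and an NF-kappa-B match 54 to 45 bases upstream. Neither window held GAGGAA or TTGCNNAA. No marked matches overlapped one another, apart from the IL34 match, which reads as NF-kappa-B on both strands. Of 19534 windows of protein-coding genes, 22% held GAGGAA, 14% the NF-kappa-B consensus, 8.21% TTGCNNAA and 5.25% TGANTCA, so a match is a description of these letters and not a site.

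Gland libraries kept 9332 to 18693 nuclei each (126833 in all), with 18700704 to 53161349 UMIs (unique molecular identifiers, 1 for each captured RNA molecule) and a median of 1382 to 2496 UMIs per nucleus. Nuclei were put into 14 classes by markers that include none of the 4 genes: a class needed at least 2 of its distinct markers and more than any other class, and its name carries "-like" because the gate is a rule and not an annotation. Levels are in CPM, the UMIs of a gene over all UMIs of a library or class, scaled by 1e+06. The 2 L20 glands stood apart from their label. CSN2, which encodes beta-casein, was at 192 and 5.67 CPM there against 1932 and 2014 CPM in L0, and the second L20 sow had 7.43% luminal epithelial-like and 13.5% macrophage-like nuclei, against 22.6% to 81.0% and 0.415% to 4.89% in the other 9 glands. CSN2 also differed within G90 (93.7 and 2443 CPM) and within PI2 (2.22 and 478 CPM), where PI2 sow 2, the higher, was the gland with little IL34 and had the fewest nuclei in any class (51.0%). Any 2 libraries of nuclei or milk cells shared 0.550% to 1.52% of the barcodes of the smaller one.

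Whole-gland levels of the ligands were spread widely among sows of 1 stage. IL34 stood at 169 and 95.4 CPM in G90 (sow 1 and sow 2), 110 and 142 in L0, 235 and 131 in L20, 879 and 96.2 in PI2, and 279 and 631 in PI7. The highest and nearly the lowest IL34 level of the series thus came from the 2 sows of 1 stage, PI2, and both PI7 sows lay above every sow of G90, L0 and L20. CSF1 stood at 18.8 and 17.7 CPM in G90, 7.17 and 7.06 in L0, 46.8 and 60.8 in L20, 40.1 and 64.4 in PI2, and 43.8 and 70.9 in PI7. All 6 sows of L20, PI2 and PI7 lay above all 4 sows of G90 and L0, and the 2 L0 sows were the lowest.

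CSF3 had no order by stage. Its levels were 6.22 and 9.42 CPM in G90, 9.77 and 17.7 in L0, 75.3 and 5.06 in L20, 38.7 and 47.6 in PI2, and 7.11 and 14.9 in PI7. The 2 L20 sows held the highest and the lowest CSF3 level of all 10 glands, and the 2 PI2 sows were the next highest. CSF1R stood at 28.5 and 11.2 CPM in G90, 5.70 and 7.01 in L0, 38.9 and 106 in L20, 26.4 and 25.1 in PI2, and 92.2 and 95.7 in PI7. CSF1R was lowest in both L0 glands, and it was above every G90, L0 and PI2 gland in both PI7 glands and both L20 glands.

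**Figure D1:**
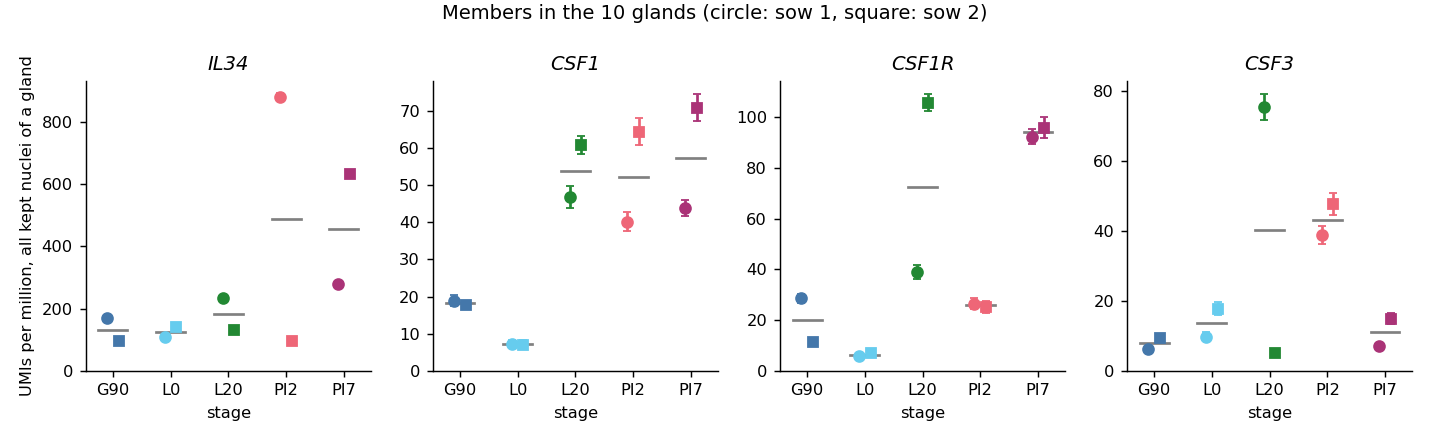
Level of each gene in the 10 glands by stage, in CPM of all kept nuclei. Circles are sow 1 and squares sow 2, vertical bars are 95% exact Poisson intervals of counting, and grey lines are stage means: CSF1 is lowest in the 2 L0 glands (7.17 and 7.06), and IL34 ranges from 96.2 to 879 within PI2.

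The 5 stage comparisons were tested in the summed counts of each gland with edgeR's quasi-likelihood test: L0 against G90, L20 against L0, PI2 against L20, PI7 against PI2, and both involution stages against both lactation stages. Called means a Benjamini-Hochberg adjusted p under 0.05 and a log2 fold change over 1 in either direction. None of the 20 tests of the 4 genes was called, and 0 of the 22695 genes tested were called in any of the 5 comparisons (background 0%). At an unadjusted p under 0.05 there were 7 of the 20, and 464 to 2912 genes per comparison. The closest were CSF1R (log2 fold change 2.87 ± 0.55 SE, adjusted p = 0.141) and CSF1 (2.39 ± 0.57, adjusted p = 0.177) at L20 against L0, a comparison in which the median gene moved by 0.24. DESeq2 called 1.73%, 5.1%, 0.0749%, 0.0573% and 0.842% of genes in the 5 comparisons in the order given. In the second DESeq2 called both (CSF1R 2.85, adjusted p = 0.000103, and CSF1 2.37, adjusted p = 0.0034). Without a filter on low counts edgeR called CSF1R there (2.85, adjusted p = 0.0284). The share of all genes called in that comparison without the filter is not reported here, so this edgeR call has no background beside it.

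The comparison of involution with lactation gave log2 fold changes of 1.46 ± 0.62 for IL34 (adjusted p = 0.692), 1.39 ± 0.39 for CSF1 (adjusted p = 0.593), 1.13 ± 0.37 for CSF1R (adjusted p = 0.630) and −0.34 ± 0.74 for CSF3 (adjusted p = 0.977) in edgeR. The IL34 value rested on single sows: it was 0.33 without PI2 sow 1, 0.87 without PI7 sow 2 and 1.88 without PI2 sow 2. When both L20 glands were left out, a setting chosen after their casein was seen, CSF1R rose in involution against L0 by 2.49 ± 0.48 and was called (adjusted p = 0.0449), while CSF1 was at 2.53 ± 0.54 (adjusted p = 0.061). In that setting and over 3 stage comparisons 20 genes were called higher and 155 lower. The share of all genes called in involution against L0 alone is not reported here, so the CSF1R call has no background beside it. In counts simulated for the comparison of 4 involution with 4 lactation glands, with the spread of these libraries, the test found 15 of 100 genes changed by 2 on the log2 scale and 62 of 100 changed by 3.

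Whole-gland values join the level in a nucleus with the number of nuclei, and fewer cells of a type and less RNA per cell cannot be told apart in them. The percentage of macrophage-like nuclei was 2.12 and 0.669 in G90, 0.533 and 0.415 in L0, 2.24 and 13.5 in L20, 0.931 and 0.943 in PI2, and 4.89 and 3.99 in PI7. Over the 10 glands, CSF1R followed this percentage with a Pearson r of 0.823 (adjusted p = 0.00016, permutation test over 4 relations) and a Spearman rho of 0.964 (adjusted p = 0.00056). The relation held without the 2 glands farthest from the median, L20 sow 2 and PI7 sow 1 (r = 0.953). Part of it is built in, since the macrophage-like nuclei carry much of the CSF1R RNA. CSF1 gave r = 0.513 (adjusted p = 0.204), 0.648 without those 2 glands, and rho = 0.770 (adjusted p = 0.0262), so that its rank order but not its linear relation passed. The permutations shuffled all 10 glands freely, although 2 share each stage, so these p-values do not allow for stage. The part of stage in these relations was not tested. IL34 (r = −0.0779, rho = 0.370) and CSF3 (r = −0.307, rho = −0.358) did not pass (smallest adjusted p = 0.312), and without the same 2 glands r was 0.396 and 0.0755.

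The 4 genes were also compared between cell classes. In each sow a class was set against all her other gated nuclei, with the sow as a block, over 9 classes and 36 tests of the 4 genes. There were 4 called higher, 1 for each gene, and 12 called lower (edgeR's quasi-likelihood test with Benjamini-Hochberg adjustment). The 36 tests are not independent, since each class is among the other nuclei of every other class. Luminal epithelial-like nuclei held 58.6% of all gland UMIs, so a gene called lower elsewhere can restate its call higher in them. IL34 was higher in luminal epithelial-like nuclei by a log2 fold change of 1.54 ± 0.22 (adjusted p = 4.82e-05, n = 10 sows), and CSF3 was higher in the same class by 1.09 ± 0.17 (adjusted p = 9.15e-05), where 7.43% of all genes were called higher. CSF1 was higher in fibroblast-like nuclei by 1.67 ± 0.28 (adjusted p = 0.000157, background 8.17%). CSF1R was higher in macrophage-like nuclei by 4.98 ± 0.32 (adjusted p = 2.48e-10, background 8.72%).

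**Figure D2:**
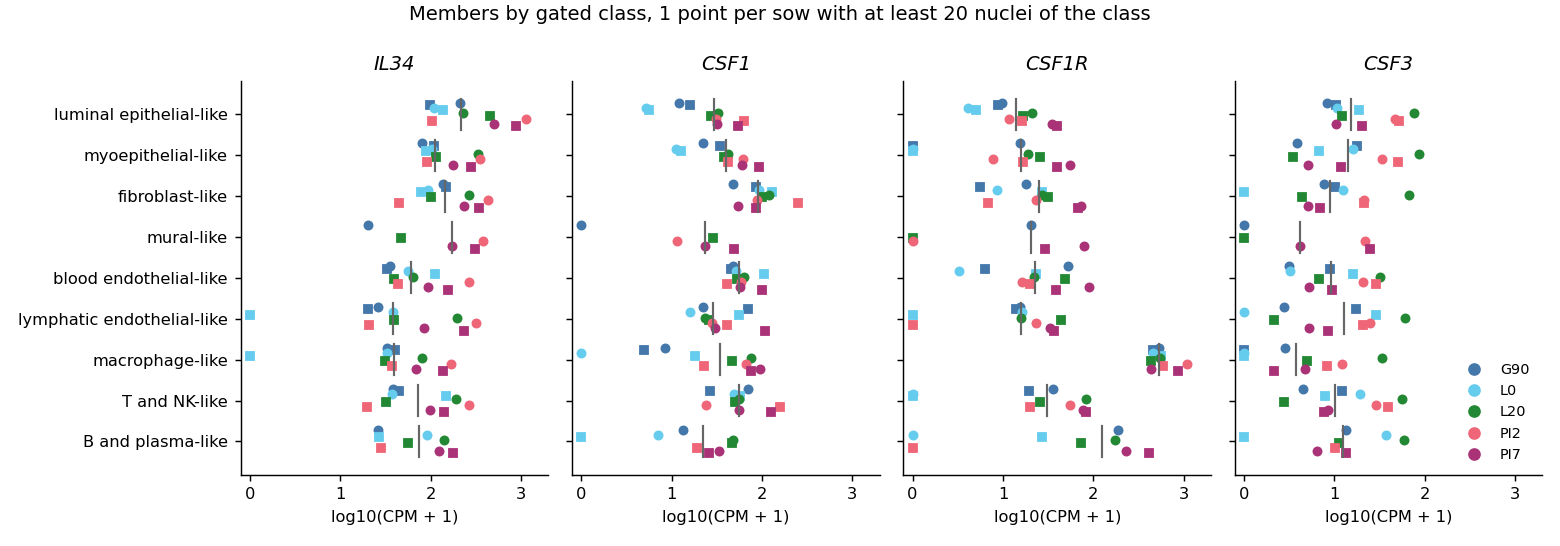
Level of each gene in the 9 gated classes with at least 20 nuclei in 5 or more sows, as log10(CPM + 1), with 1 point per such sow. Colours are stages, circles are sow 1 and squares sow 2, and lines are medians: CSF1R in macrophage-like nuclei (428 to 1078 CPM) lies above every other class, whereas the classes overlap for the 3 ligands.

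Luminal epithelial-like nuclei held 72.9% of all IL34 UMIs in the glands and nuclei of no class 13.7%, beside 58.6% and 15.8% of the UMIs of all genes. The medians over sows ran from luminal epithelial-like (217 CPM, range 96.8 to 1137) through mural-like (170, 5 sows), fibroblast-like (143), myoepithelial-like (111), B and plasma-like (73.0), T and NK-like (71.2) and blood endothelial-like (59.7) to macrophage-like and lymphatic endothelial-like nuclei (37.9 each), over classes with at least 20 nuclei in 5 or more sows. Adipocyte-like nuclei passed in 3 sows, with an IL34 median of 272 CPM (45.0 to 533). In these 3 sows (L20 sow 2, PI2 sow 1 and PI7 sow 1) the luminal level was higher, at 450, 1137 and 495 CPM. Medians over unlike sets of sows, also that of mural-like nuclei, do not rank classes within a sow. Neighbours in this order overlapped in their ranges. The luminal class ranked first in 7 of 10 sows, and fibroblast-like nuclei ranked first in G90 sow 2, T and NK-like nuclei in L0 sow 2, and myoepithelial-like nuclei in L20 sow 1.

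In these tests IL34 was called lower in 6 classes: macrophage-like (−2.26 ± 0.20), T and NK-like (−2.13), lymphatic endothelial-like (−1.88), B and plasma-like (−1.85), blood endothelial-like (−1.77) and mural-like nuclei (−1.41). The background called lower in these classes ran from 6.92% (mural-like) to 19.4% (T and NK-like), with 13.9% in macrophage-like, 13% in B and plasma-like, 10.6% in lymphatic and 7.43% in blood endothelial-like nuclei. Fibroblast-like (−0.59 ± 0.17, adjusted p = 0.0137) and myoepithelial-like nuclei (−0.63 ± 0.18, adjusted p = 0.0165) stayed within a log2 fold change of 1, although IL34 was called lower in myoepithelial-like nuclei when nuclei with markers of another class were left out (−1.09) and under clusters (−1.24). The median share of nuclei with an IL34 UMI was 27.0% in the luminal class and 6.73% in T and NK-like nuclei, at median depths of 2435 and 985 UMIs. Thinned to 1000 UMIs per nucleus, with 4397 luminal nuclei below that depth left out, the luminal share was 15.3%. The T and NK-like share above is of all nuclei of the class and not thinned.

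RNA of epithelial genes was found in the other classes, and IL34 was set beside 3 such genes (ESRP1, GRHL2 and ERBB3, a reference chosen after the data were seen). Free RNA, nuclei measured together and the gate were not tested as its source. Fibroblast-like nuclei had a median of 51.9% of the luminal IL34 level against 30.3% for these genes, and IL34 was above the reference in 10 of 10 sows. In blood endothelial-like (25.9% against 33.8%), T and NK-like (21.6% against 34.3%) and macrophage-like nuclei (15.4% against 20.7%) the medians lay below the reference, with 2, 3 and 4 of 10 sows above it. The T and NK-like value was 108% of the luminal level in L0 sow 2. In fibroblast-like nuclei the level was 137 and 148 CPM in G90, 92.7 and 77.0 in L0, 263 and 98.8 in L20, 426 and 43.8 in PI2, and 232 and 341 in PI7, so PI2 sow 1 was highest and PI2 sow 2 lowest in this class.

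Within luminal epithelial-like nuclei IL34 was at 209 and 96.8 CPM in G90, 109 and 135 in L0, 225 and 450 in L20, 1137 and 103 in PI2, and 495 and 883 in PI7. The share of these nuclei with a UMI ran with it, from 13.3% in G90 sow 2 to 62.3% in PI2 sow 1. Both PI7 sows were above all sows of the 3 earlier stages, and PI2 sow 2 (15.6% of nuclei) was below both L0 sows. The log2 fold change of involution against lactation was 1.52 ± 0.58 (adjusted p = 0.345, edgeR), with 0.32 without PI2 sow 1 and 1.97 without PI2 sow 2.

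CSF1, the ligand made in most tissues, had no single class in these glands. Luminal epithelial-like nuclei held 35% of its UMIs, fibroblast-like 23.1%, nuclei of no class 19.2% and blood endothelial-like 7.04%, beside 58.6%, 9.54%, 15.8% and 4.33% of the UMIs of all genes. By level, the order of medians was fibroblast-like (89.0 CPM, range 46.2 to 248), T and NK-like (54.9), blood endothelial-like (54.5), myoepithelial-like (38.7), macrophage-like (33.6), luminal epithelial-like (28.4), lymphatic endothelial-like (28.0), mural-like (22.5) and B and plasma-like nuclei (21.5). Adipocyte-like nuclei, in 3 sows, had a median of 59.2 CPM. All neighbours overlapped. The fibroblast class ranked first in 6 of 10 sows, and T and NK-like, neutrophil-like or macrophage-like nuclei in the other 4.

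The luminal class was large but low in CSF1, and the test called CSF1 lower in it (−1.26 ± 0.25, adjusted p = 0.000693, where 15.8% of genes were called lower). CSF1 was also called lower in B and plasma-like nuclei (−1.16 ± 0.39, adjusted p = 0.0204, 8 sows), a call lost when either PI7 sow, L20 sow 2 or PI2 sow 2 was left out. Blood endothelial-like nuclei were at 0.82 ± 0.30 (adjusted p = 0.048), under the fold threshold, and at 0.46 without L0 sow 2 and 0.49 without L0 sow 1. The fibroblast-like levels were 46.2 and 85.6 CPM in G90, 90.8 and 128 in L0, 118 and 99.98 in L20, 87.1 and 248 in PI2, and 54.0 and 84.3 in PI7. They followed no stage order, and the L0 glands, lowest over the whole gland, were not low in this class. The fibroblast-like share with a UMI had a median of 12.4%, or 7.81% thinned to 1000 UMIs, with 2840 nuclei below that depth left out.

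In luminal epithelial-like nuclei CSF1 was at 11.098 and 15.1 CPM in G90, 4.22 and 4.65 in L0, 32.0 and 26.5 in L20, 30.3 and 62.3 in PI2, and 30.7 and 53.9 in PI7. All 6 later sows lay above all 4 earlier ones. CSF1R, a macrophage gene here, was split the same way in these nuclei, at 8.74 and 7.77 CPM in G90, 3.15 and 4.02 in L0, 19.9 and 15.6 in L20, 10.52 and 15.1 in PI2, and 33.7 and 38.6 in PI7. Its log2 fold changes were 2.00 ± 0.50 for L20 against L0 (edgeR's adjusted p = 0.159) and 1.26 ± 0.34 for involution against lactation (adjusted p = 0.255), neither called, and the part of RNA from other cells in the luminal CSF1 values was not tested. For CSF1, edgeR gave 1.81 ± 0.41 for involution against lactation (adjusted p = 0.209) and 2.41 ± 0.59 for L20 against L0 (adjusted p = 0.158), neither called, where 0 of 19240 genes were called (2309 and 2507 at an unadjusted p under 0.05). DESeq2 called both (1.75, adjusted p = 0.00631, where it called 2.77% of genes, and 2.37, adjusted p = 0.00642, where it called 4.81%). Without the L20 glands, the setting chosen after the data were seen, edgeR called CSF1 in involution against L0 (2.96 ± 0.56, adjusted p = 0.0381). The share of all luminal genes called in that setting is not reported here, so this call has no background beside it.

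CSF3, the granulocyte factor, was sparse. Luminal epithelial-like nuclei held 64.1% of its UMIs and nuclei of no class 22.5%, beside 58.6% and 15.8% of the UMIs of all genes. The luminal median was 14.4 CPM with a UMI in 3.95% of nuclei. By level the luminal class ranked first in 3 of 10 sows (both PI2 sows and PI7 sow 1), and B and plasma-like, myoepithelial-like, lymphatic endothelial-like, dendritic-like or mural-like nuclei did in the other 7. The luminal levels were 7.35 and 9.48 CPM in G90, 9.72 and 17.8 in L0, 75.3 and 11.04 in L20, 46.2 and 50.4 in PI2, and 9.29 and 19.2 in PI7. L20 sow 1 and both PI2 sows were the 3 highest. Class medians fell from myoepithelial-like (13), lymphatic endothelial-like (11.9), B and plasma-like (11.3), T and NK-like (9.27), blood endothelial-like (8.21) and fibroblast-like (7.98) to mural-like (3.21) and macrophage-like nuclei (2.79), with overlap at each step. Macrophage-like nuclei were called lower (−1.59 ± 0.33, adjusted p = 0.000707). The luminal call was lost without TMM scaling (0.78) and without L20 sow 2 (0.998, just under the threshold). Relative to the luminal level, CSF3 in T and NK-like (66.5% against 34.3% for the reference genes) and fibroblast-like nuclei (44.1% against 30.3%) lay above these genes in 9 of 10 sows each. In blood and lymphatic endothelial-like nuclei it did so in 7 sows each. In macrophage-like (19.3% against 20.7%) and myoepithelial-like nuclei (63.3% against 61.2%) it did so in 5 each. Myoepithelial-like nuclei are epithelial too, so their own RNA of the reference genes cannot be told apart from luminal RNA. The T and NK-like values rested on 1 to 11 CSF3 UMIs per sow, and in G90 sow 2 and L0 sow 1 on 3 UMIs of 1 nucleus, so the tally is of sparse counts.

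CSF1R, the receptor of CSF1 and IL34, was a macrophage gene in all glands. Macrophage-like nuclei stood at 528 and 458 CPM in G90, 450 and 555 in L0, 541 and 434 in L20, 1078 and 580 in PI2, and 428 and 861 in PI7, and a UMI was found in 40.7% to 67.2% of them. They ranked first in 10 of 10 sows, and their lowest sow (428) was above the highest sow of any other class with at least 20 nuclei (411). The other medians ran from B and plasma-like (122 CPM), T and NK-like (29.4), fibroblast-like (23.8), blood endothelial-like (21.8) and mural-like (19.4) to lymphatic endothelial-like (14.97), myoepithelial-like (14.9) and luminal epithelial-like nuclei (12.8). In the luminal class CSF1R was called lower (−2.20 ± 0.18), with a UMI in a median of 2.84% of nuclei at a median depth of 2435 UMIs, and in macrophage-like nuclei the share was 48.8% at 1592 UMIs.

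B and plasma-like nuclei were second by median but ranged from 0 to 411 CPM over 8 sows, and their difference was not called (0.94 ± 0.33, adjusted p = 0.0285). It became a call without L20 sow 2 (1.60), PI2 sow 2 (1.17) or PI7 sow 1 (1.12) and was at 0.58 without G90 sow 1, and clusters in place of the gate turned it to −2.17 (adjusted p = 0.00439). CSF1R was also called lower in myoepithelial-like (−1.16 ± 0.22, background 5.02%) and mural-like nuclei (−1.33 ± 0.42, 5 sows), the latter lost without L20 sow 2 (−0.88) or PI7 sow 2 (−1.26, adjusted p = 0.147) and at −2.36 without PI7 sow 1. Luminal CSF1R was 2.15% of the macrophage-like level, against 1.60% for 3 macrophage genes (SPI1, CD86 and VSIG4), and above them in 8 of 10 sows. CSF1R was above them in 1 of 10 sows in T and NK-like nuclei (5.29% against 9.44%) and in 3 in blood endothelial-like nuclei (3.97% against 6.33%). In fibroblast-like nuclei it was above them in 4 (3.935% against 3.885%). In all, macrophage-like nuclei held 38.2% of CSF1R UMIs, nuclei of no class 25.9% and luminal epithelial-like nuclei 16.4%, beside 3.53%, 15.8% and 58.6% of the UMIs of all genes.

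Within macrophage-like nuclei the CSF1R level spanned 428 to 1078 CPM over the glands, beside the span of 0.415% to 13.5% in the share of such nuclei. Involution against lactation gave 0.49 ± 0.34 for CSF1R within the class (adjusted p = 0.833), 0.23 without PI7 sow 2 and 0.69 without PI7 sow 1. PI2 sow 1 was the highest gland for CSF1R in macrophage-like nuclei as for IL34 in luminal ones. CSF1 in the same nuclei was at 0 to 17.4 CPM in the 4 sows of G90 and L0 and at 22.0 to 92.9 CPM in the other 6. The lower values rested on 4, 1, 0 and 1 UMIs and that of 22.0 on 3, and in PI7 sow 1 the 10 highest nuclei held 71.6% of the UMIs. The tests gave log2 fold changes of 3.26 ± 1.16 for L20 against L0 (adjusted p = 0.456) and 1.55 ± 0.71 for involution against lactation (adjusted p = 0.754). Of the macrophage-like nuclei with a CSF1R UMI, 0% to 8.16% per sow also held a CSF1 UMI.

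**Figure D3:**
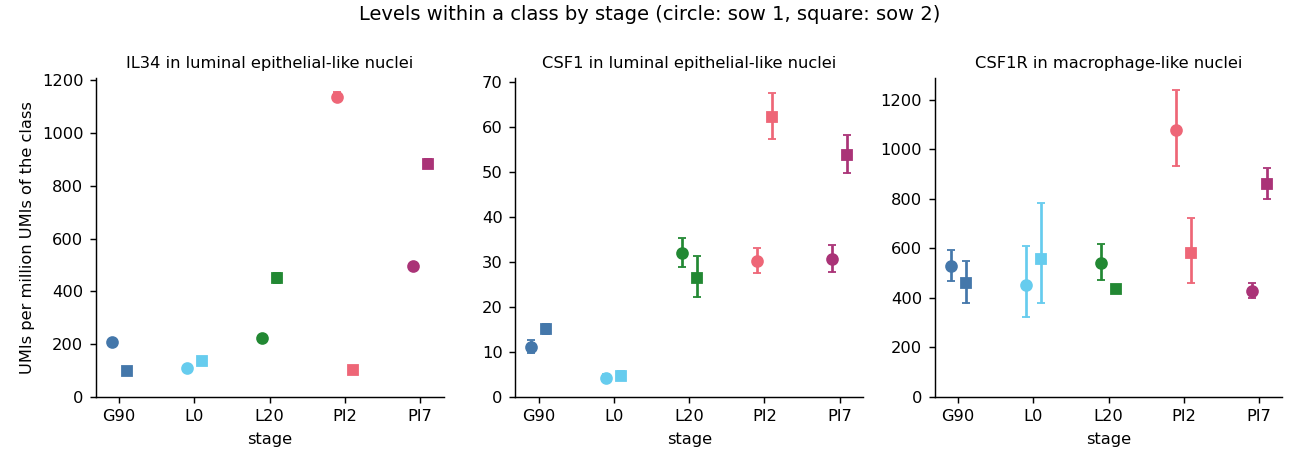
IL34 and CSF1 in luminal epithelial-like nuclei and CSF1R in macrophage-like nuclei by stage, in CPM of the class. Circles are sow 1, squares sow 2 and bars 95% exact Poisson intervals: luminal CSF1 is at 4.22 and 4.65 in L0 and at 26.5 or more in every L20, PI2 and PI7 gland.

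Over luminal epithelial-like, fibroblast-like, blood endothelial-like and macrophage-like nuclei, 0 of 75 stage tests of the 4 genes were called by edgeR (14 at an unadjusted p under 0.05), and DESeq2 called 4 of the 60 to which it gave an adjusted p. The background of edgeR in these comparisons was 0%, except 0.0468% for L0 against G90 in the luminal class. CSF3 was too low in macrophage-like nuclei to be tested. In the order of comparisons given above, DESeq2 called 4.73%, 4.81%, 0.052%, 0.125% and 2.77% of genes in luminal epithelial-like nuclei and 0.235%, 0.36%, 0.0368%, 0.00735% and 0.199% in fibroblast-like nuclei. It called 0.22%, 0.475%, 0.017%, 0.0339% and 0.187% in blood endothelial-like nuclei and 0.0817%, 0.373%, 0.0583%, 0.0233% and 0.0233% in macrophage-like nuclei.

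The ligands were not evenly spread among luminal nuclei. These nuclei were split by a UMI of PGR or ESR1 (hormone receptors), KIT (a receptor of luminal progenitors) or CSN1S1 (alpha-S1-casein), a split chosen after the data were seen, and each of 12 differences was tested over 10 sows by an exact sign-flip test, two-sided, whose smallest p is 0.00195. CSF1 was higher in nuclei with PGR in 10 of 10 sows (median 61.1 against 23.2 CPM, mean difference in log2(CPM + 1) of 1.47 ± 0.90 SD, adjusted exact p = 0.00469). It was higher with ESR1 in 10 of 10 (43.0 against 17.3 CPM, 0.82 ± 0.54, adjusted exact p = 0.00469) and lower with KIT in 10 of 10 (19.3 against 42.9 CPM, −0.92 ± 0.48, adjusted exact p = 0.00469). The CSF1 level was thus higher in the hormone receptor-positive nuclei than in the rest of the luminal class.

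IL34 and CSF3 were arranged otherwise. IL34 was lower in nuclei with CSN1S1 in 10 of 10 sows (127 against 412 CPM, −0.99 ± 0.64, adjusted exact p = 0.00469) and lower with ESR1 in 10 of 10 (182 against 227 CPM, −0.50 ± 0.24, adjusted exact p = 0.00469). With KIT it was higher in 8 of 10 sows, which missed the threshold (0.31 ± 0.39, adjusted exact p = 0.0527), as did PGR, with 7 sows lower and 3 higher (−0.40 ± 0.56, adjusted exact p = 0.0724). CSF3 was higher with KIT in 9 of 10 sows (15.9 against 10.6 CPM, 0.29 ± 0.35, adjusted exact p = 0.0301), with CSN1S1 5 sows were higher and 5 lower, and with PGR or ESR1 8 were lower and 2 higher (adjusted exact p = 0.0633 each). CSF1 was lower with CSN1S1 in 9 of 10 sows (−0.77 ± 0.82, adjusted exact p = 0.0301), L0 sow 1 being the exception. Nuclei with a UMI of the splitting gene were deeper (median over sows 3326 against 2402 UMIs for PGR, 3162 against 2244 for ESR1, 2772 against 2019 for KIT and 2663 against 2101 for CSN1S1), and the part of depth in these differences was not tested. The CSN1S1 groups were uneven in some sows. In G90 sow 2 and L0 sow 1, 14691 and 7524 luminal nuclei held it, and 458 and 294 did not, at medians of 1248.5 and 1380.5 UMIs.

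**Figure D4:**
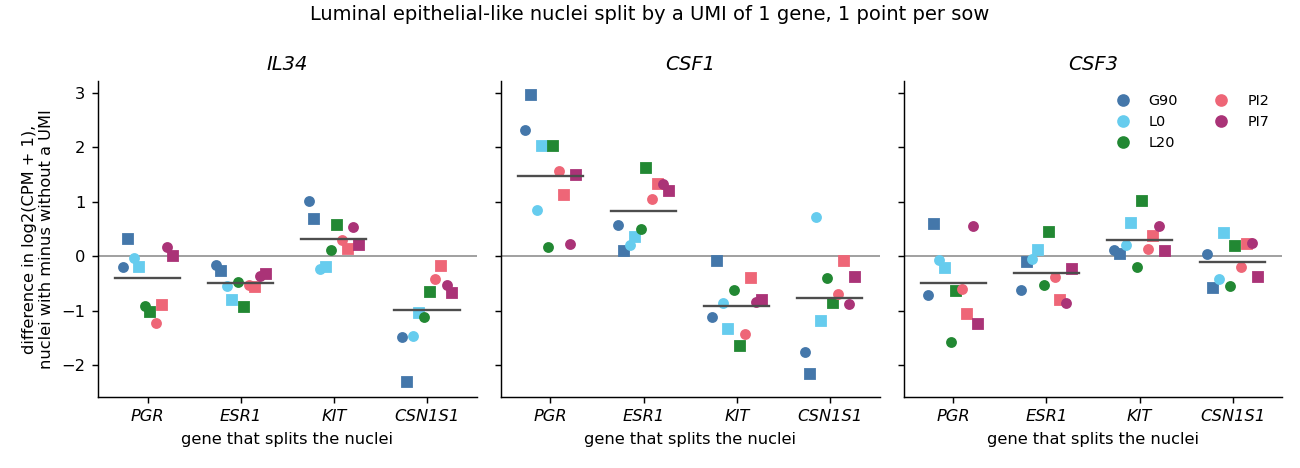
Difference in log2(CPM + 1) of IL34, CSF1 and CSF3 between luminal epithelial-like nuclei with and without a UMI of PGR, ESR1, KIT or CSN1S1, 1 point per sow (circle sow 1, square sow 2) and a line at the mean. CSF1 lies above 0 in 10 of 10 sows for PGR and ESR1 and below it for KIT, and IL34 lies below 0 in 10 of 10 for ESR1 and CSN1S1.

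Other genes of the pathway were followed in a list of 33, of which 29 were in the files. In macrophage-like nuclei 19 of the 28 tested were called higher and 2 lower (SDC1 and KITLG), where 8.72% of all genes were called higher and 13.9% lower, with a median log2 fold change of 1.76 against −0.12 over all genes. All 8 genes of CSF1R signalling were among the 19, including the adaptor GRB2 (1.48), the ubiquitin ligase CBL (1.26), the phosphatase PTPN6 (2.80) and the phospholipase PLCG2 (2.81). Of these 8, 5 were also called higher in T and NK-like nuclei (PIK3CD 3.50, PLCG2 1.96, INPP5D 1.72, PTPN6 1.69 and CBL 1.05), where 8.46% of genes were, and 2 in B and plasma-like nuclei (PLCG2 2.20 and PTPN6 1.61), where 5.72% were. TREM2 (3.76) and its adaptor TYROBP (4.19) were also called higher, and of 7 myeloid transcription factors SPI1, which encodes PU.1 (4.24), MAF (2.34), CEBPA (1.78), IRF8 (1.75) and MITF (1.36) were called higher. MAF was also called higher in lymphatic endothelial-like nuclei (2.86, background 7.19%), MITF in fibroblast-like nuclei (1.74) and SPI1 in B and plasma-like nuclei (1.01).

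CSF3R, the receptor of CSF3, was called higher in macrophage-like nuclei (3.11, median 20.3 CPM against 1.35 CPM in the luminal class), as was CSF2RB (4.87), the shared chain of the receptors for CSF2 and related cytokines. In luminal epithelial-like nuclei, where IL34 and CSF3 were higher, 0 of 28 were called higher and 16 lower (7.43% and 15.8% of all genes). PTPRZ1 and SDC1, which bind IL34 besides CSF1R, were called higher in myoepithelial-like nuclei (3.58, with a median of 99.5 CPM, and 1.19), in the class where 4.21% of genes were called higher. KITLG, the ligand of KIT, was called higher in blood endothelial-like (2.97) and myoepithelial-like nuclei (1.88). No stage test of these genes was called by edgeR in the whole gland (140 tests, smallest adjusted p = 0.141) or in the luminal class (135 tests, smallest adjusted p = 0.124).

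Genes most like each of the 4 were named by Pearson correlation of log2(CPM + 1) over 88 sums of 1 class in 1 sow, among 11599 genes, a description in which sums of 1 sow share a library. The markers of the gate and genes without a symbol were not named, so nearest means nearest among the other genes. CSF1R was nearest SPI1 (r = 0.831), TFEC (0.801), VSIG4 (0.800), FGD2 (0.794) and SLA-DMB (0.791). IL34 was nearest STAC2 (0.767), EGFR (0.722), TARDBP (0.714), SCGN (0.709) and ALG13 (0.692). The values of CSF1 and CSF3 were lower: CSF1 was nearest SMARCD1 (0.581), CEMIP2 (0.578), GCLC (0.568) and ZNF239 (0.556), and CSF3 nearest CAPN15 (0.634), SNRNP70 (0.634), SPSB3 (0.621), SLC1A1 (0.621) and EIF3D (0.614).

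Milk was measured in whole cells and the gland in nuclei, so levels are not compared between them. The title of the L0 milk sample carries the letter that marks G90 among the glands, and its stage label was followed. With 1 library per stage there is no test, and the 95% exact intervals in parentheses cover counting error only. IL34 was at 1.56 CPM (1.296 to 1.85) in colostrum (L0) and 3.07 (2.57 to 3.64) in mature milk (L20), with 126 and 132 UMIs in all, and luminal epithelial-like milk cells had 1.12 and 4.97 CPM. CSF1 was at 182 CPM (179 to 185) at L0 and 347 (342 to 353) at L20, CSF1R at 34.6 (33.3 to 35.9) and 109 (106 to 113), and CSF3 at 12.01 (11.3 to 12.8) and 43.6 (41.7 to 45.6). These levels were higher in the L20 than in the L0 milk library for all 4 genes, whereas the share of cells with a UMI was 26.9% and 27.1% for CSF1 and 3.28% and 3.13% for CSF3. The make-up of the libraries differed: luminal epithelial-like cells were 16.2% of cells at L0 with 54613895 of 80995806 UMIs (median 17579 per cell), and 7.07% at L20 with 9249048 of 42948881 UMIs (median 2968). Neutrophil-like cells were 52.5% and 29.6% and macrophage-like cells 3.41% and 10.9% (17571 and 14514 cells). The part of these differences in the whole-library levels was not tested.

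CSF1 in milk lay mostly in neutrophil-like cells and in cells of no class. Neutrophil-like cells held 41.5% of its UMIs at L0 and 28.8% at L20, and cells of no class 40.0% and 53.2%. Neutrophil-like cells were 9222 of 17571 cells at L0 and 4296 of 14514 at L20, and cells of no class 4401 and 6286. Over both libraries these 2 classes had 20104545 and 18747946 UMIs of all genes, beside 63862943 in luminal epithelial-like cells. The neutrophil-like level was 450 CPM (438 to 461) at L0 and 663 (643 to 683) at L20, with a UMI in 20.6% and 27.3% of cells. Cells of no class were at 761 and 723 CPM, and the 147 dendritic-like cells of L20 were at 838 (744 to 940). T and NK-like cells, which also held CSF1 in the gland, were at 85.3 and 136 CPM with a UMI in 10.4% and 11.7% of cells at a median of 1707 and 1652 UMIs, against 1231 and 1153 UMIs in neutrophil-like cells. Macrophage-like cells went the other way, from 345 CPM (326 to 365) at L0 to 122 (116 to 128) at L20. Single cells reached 45 CSF1 UMIs at L0 and 80 at L20, and cells with the gene held 3.13 and 3.80 UMIs on average. Only 5 of the 8 neutrophil markers were in the files, and cells of no class could hold neutrophils, which was not tested. A gate of 3 markers, given below, lowered the neutrophil-like level in both libraries.

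In a split of milk cells by SLAMF7, a receptor of activated leukocytes, chosen after the data were seen, CSF1 was at 425 CPM with and 160 without a SLAMF7 UMI at L20, and at 206 and 163 in L0. The share of cells with a CSF1 UMI was 33.7% with and 16.2% without at L20, and 36.8% and 21.3% at L0. The split took all kept cells, also the deep luminal epithelial-like ones, and their part in these levels was not tested. CSF1R in milk was highest, among classes of at least 20 cells, in macrophage-like cells, at 261 CPM (245 to 279) at L0 and 208 (201 to 216) at L20. A UMI was found in 45.7% and 61.8% of these cells. After thinning to 1000 UMIs it was found in 21.9% and 23.0% of those with at least that depth. Neutrophil-like cells were at 54.6 and 84.0 CPM, T and NK-like cells at 11.5 and 4.28 and luminal epithelial-like cells at 9.50 and 3.14. A CSF1 UMI was found in 32.5% (L0) and 34.5% (L20) of the macrophage-like cells with a CSF1R UMI and in 55.8% and 29.7% of those without, and RNA from other milk cells in these droplets was not tested.

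CSF3 changed its cells between the 2 milk libraries. At L0 luminal epithelial-like cells held 89.9% of its UMIs (16.0 CPM, 14.98 to 17.1), and neutrophil-like cells were at 2.86 CPM (2.04 to 3.91). At L20 the luminal share was 2.67% (5.41 CPM, 4.01 to 7.13), and cells of no class (78.5 CPM), neutrophil-like (49.5) and macrophage-like cells (46.7) held 46.1%, 17.1% and 33.3% of the UMIs. The L20 signal was concentrated: 1.93% of neutrophil-like and 9.65% of macrophage-like cells had a UMI, and in cells of no class the 10 highest held 31.4% of the UMIs. In all, 577 (L0) and 455 (L20) cells had a CSF3 UMI. Luminal epithelial-like cells were 2849 of 17571 cells at L0 and 1026 of 14514 at L20, and deeper at L0, as given above. The part of make-up and depth in the CSF3 shares was not tested. CSF3R was at 1727 and 1966 CPM in neutrophil-like milk cells. Among genes of inflammatory cytokines, IL1A was at 47.4 and 305 CPM over all milk cells at L0 and L20, and CXCL8 at 5544 and 6001.

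**Figure D5:**
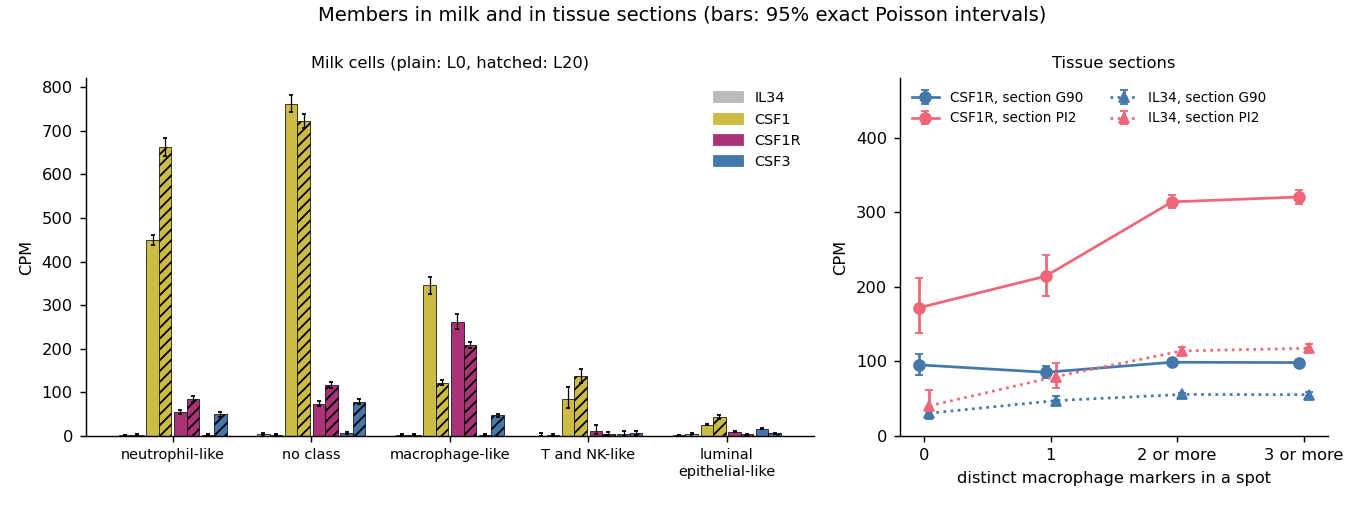
Left, level in CPM of the 4 genes in milk cells by class at L0 (plain) and L20 (hatched); right, CSF1R and IL34 in the spots of the G90 and PI2 sections by the number of distinct macrophage markers in the spot. Bars are 95% exact Poisson intervals: CSF1 is at 450 (L0) and 663 (L20) in neutrophil-like cells, and CSF1R at PI2 is 172 in spots with 0 markers and 314 with 2 or more.

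In the tissue sections all 4 genes were higher at PI2 (2248 spots, median 5927 UMIs) than at G90 (4721 spots, median 8062 UMIs), without a test. IL34 was at 110 CPM (105 to 115) against 53.3 (51.2 to 55.6), CSF1 at 30.4 (27.9 to 33.1) against 22.7 (21.3 to 24.1), and CSF3 at 20.7 (18.6 to 22.9) against 11.4 (10.45 to 12.5). CSF1R was at 304 CPM (296 to 312) against 96.9 (94.0 to 99.9), and the 8 macrophage markers summed to 1027 against 449 CPM. A CSF1R UMI was found in 66.8% of spots at PI2 and 50.6% at G90. Thinned to 1000 UMIs, it was found in 24.6% and 10.0% of spots with at least that depth. A spot can hold several cells, so these values are of regions. At PI2 CSF1R was at 172 CPM (138 to 211) in spots with 0 macrophage markers and at 314 (306 to 323) in spots with 2 or more, and at G90 it was at 95.3 and 98.8.

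IL34 in the sections went with luminal markers. At G90 it was at 5.91 CPM (0.150 to 32.9) in spots with 0 luminal markers, 20.0 (10.6 to 34.1) with 1 and 54.0 (51.8 to 56.3) with 2 or more. At PI2 the values were 29.6 (13.6 to 56.3), 45.9 (31.9 to 63.8) and 114 (109 to 119). CSF3 had no UMI in the spots without luminal markers of either section, for which the 95% exact Poisson limit is 21.8 CPM at G90 and 12.1 in PI2, and was at 11.6 and 21.6 CPM in spots with 2 or more. CSF1R showed no such order, with 124 (76.9 to 190) and 96.2 CPM at G90 and 270 (215 to 335) and 305 CPM at PI2 in spots with 0 and with 2 or more luminal markers. Spots with more markers were deeper (median 1229 against 8850 UMIs at G90 and 990 against 8038 at PI2), and the part of depth and position in these values was not tested.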

How the data were processed

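The authors deposited UMI counts per gene and barcode (unit: counts) from GEXSCOPE single-nucleus libraries of 10 glands, GEXSCOPE single-cell libraries of 2 milk samples and Visium libraries of 2 sections. Per the labels, reads were mapped to Sscrofa11.1, and the submitters' processing notes name Space Ranger 1.2.0 and Seurat 4.3.0. The deposited counts were not normalized, and 15983 of 30071 identifiers carry a symbol in the files.

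Nuclei and milk cells were kept if they had 300 genes or more and a mitochondrial share (13 genes) of no more than 25%. This left 126833 nuclei and 32085 milk cells. All 6969 spots of the sections were kept, without these limits. Classes were gated with lists of 8 markers (101 of 112 in the files), with no doublet caller. Named genes were the 4 genes, a fixed pathway list and the 5 genes outside the gate markers most correlated with each. A few of these results are not reported here. The genes and lists were chosen with earlier results of these data known.

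Summed counts were tested with edgeR 4.0.16 (TMM, quasi-likelihood, R 4.3.3), and DESeq2 1.42.0 was an alternative, with Benjamini-Hochberg adjustment over all genes tested. The standard error is the absolute log2 fold change over the square root of F. A class needed 20 nuclei in a sow and 5 sows to be compared. Per the study's methods the glands came from separate sows, so p-values of the stage tests measure the spread between sows. In the class tests, with the sow as a block, they measure how the class difference within a sow varied over sows. The test was checked on simulated counts. Intervals were exact at 95% (scipy 1.17.1). Replicate numbers were not used as pairs, since deviations of same-numbered sows did not correlate throughout.

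The alternatives left out each sow in turn and changed the tool, scaling, filters, gate and quality limits. Chosen after seeing the data were the fits without the L20 glands, clusters (scanpy 1.11.5, leidenalg 0.10.2) named by the class of most gated nuclei, the free RNA genes, the luminal and milk splits and the relation to the macrophage-like share.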

Additional observations from a re-analysis of the deposited data

How the results depend on the processing

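Of 496 alternatives to 29 comparisons followed one by one, 463 kept their direction and their side of the threshold, 15 lost a call, 17 gained one, and 1 reversed: CSF1R in B and plasma-like nuclei was at −2.17 under clusters, against 0.94. The cause was not tested. Stage calls of the 4 genes in whole glands were 0 of 20, with 2 under DESeq2, 1 without a filter on low counts and 1 without both L20 glands. Of these settings, the share of all genes called within classes is given above for DESeq2 only. Within classes the stage calls of the 4 genes were 0 of 75, with 4 of the 60 that had an adjusted p, 2 of 80 and 2 of 45 in the same settings. Leaving out 1 sow gave 0 in both. Genes called over the 5 whole-gland comparisons were 0, with 1770 under DESeq2, 334 without the filter, 407 in fits of only the stages compared, 175 without both L20 glands, and 0 to 15 without 1 sow. Class calls of the 4 genes were 16, with 14 to 20 under the alternatives and 14 to 17 without 1 sow.

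The replicate number as a block left 0 calls in whole glands, 0 within classes and 0 genes. Deviations of same-numbered sows correlated at −0.48 to 0.36 over 10 pairs of stages, with both signs. Whether same-numbered sows share a batch was not tested.

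Depth limits the shares. Thinning left out barcodes with fewer than 1000 UMIs, among them 788 macrophage-like and 2840 fibroblast-like nuclei. Shares before and after thinning are thus over unlike sets of barcodes. Thinned to 1000 UMIs, CSF1R was found in 35.4% of macrophage-like nuclei (48.8% before), CSF1 in 7.81% of fibroblast-like nuclei (12.4%), and CSF1R in 10.0% of G90 and 24.6% of PI2 spots (50.6% and 66.8%). In milk, thinning gave CSF1 in 17.9% of L0 neutrophil-like cells, and CSF1R in 21.9% (L0) and 23.0% (L20) of macrophage-like cells. A gate of 3 markers gave 338 (L0) and 526 CPM (L20) for CSF1 in neutrophil-like cells, with 16.9% positive at L0, and CSF1R in 59.1% (L0) and 71.2% (L20) of macrophage-like cells. With stricter limits (500 genes, a mitochondrial share of 10%) CSF1 in neutrophil-like cells was found in 26.5% (L0) and 32.3% (L20) and was at 507 CPM at L20, and CSF1R in 67.3% of L20 macrophage-like cells.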
